A study of Mus musculus with 8 samples.

Results

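The H3K27ac regions described here lie inside the bodies of protein-coding genes, away from any promoter. They were chosen among the 32196 regions of 3 lists (H3K27ac UP, H3K27ac DOWN and H3K27ac unchanged) as those with no annotated TSS in the region or within 1 kb and with a midpoint between the start and the end of a protein-coding gene in GENCODE release M21 (mm10). This rule kept 11733 regions (36.4%) in 4617 host genes. It used positions alone and not the class of a region.

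The regions come from mouse primary hepatocytes (MPH) of adult male mice, all of WT genotype and of a strain given as C57Bl6 in the labels and as C57BL/6J in the methods of the study. MPH were cultured without serum and received for 4 h either thapsigargin at 1 µM or the vehicle alone, DMSO at 0.04%, and chromatin was then immunoprecipitated with an antibody to H3K27ac. Each treatment has 3 H3K27ac libraries and 1 input library, 8 in all. An UP region gained and a DOWN region lost H3K27ac upon thapsigargin, as called by the authors on the 3 libraries of each treatment together. The lists hold positions only, without counts or signal for a library. How deeply each was sequenced is thus unknown. No spread between experiments can be given. Intervals of shares cover only counting error, with regions as units, and those of fitted odds ratios also the spread between blocks or genes.

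H3K27ac is the acetylation of lysine 27 of histone H3 by CBP and p300, and marks active promoters and active enhancers. Many enhancers lie in introns, where they can act on the gene that holds them or on another gene. Thapsigargin blocks the SERCA pump, which refills the endoplasmic reticulum with calcium, and so causes endoplasmic reticulum stress (ERS). ERS is sensed by IRE1 (encoded by Ern1), PERK and ATF6, whose downstream factors include XBP1, ATF4 and CHOP (encoded by Ddit3). In hepatocytes, factors such as HNF4A, FOXA2 and C/EBP proteins occupy enhancers of metabolic genes.

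The labels were checked with promoters of known genes. Promoters of 8 of 9 ERS genes were UP, and that of Atf4 was unchanged. Of 12 hepatocyte markers, 11 had a TSS in an H3K27ac region, against 1 of 8 Kupffer cell, 1 of 8 endothelial, 0 of 8 stellate cell and 3 of 7 cholangiocyte markers. Inside the bodies of these genes, the hepatocyte markers held 18 of the regions described here (3 UP and 0 DOWN), the endothelial markers 7 (0 UP and 1 DOWN) and the cholangiocyte markers 1, which was unchanged. The Kupffer cell and stellate cell markers held 0.

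The stretches below show what the DNA of these regions looks like in the genes with the most changed regions. For each of the 3 genes with most UP and the 3 with most DOWN regions, the widest region of that class was taken, and in it the 200 bp with the most motif matches. Capitals mark matches, on either strand, to the consensus of AP-1 (TGANTCA), ATF4/CHOP (TGATGNAA), C/EBP (TTGCNNAA), D-box (TTANGTAA), FOXA (TGTTTAC), HNF4 (CAAAGTCC), TEAD (GGAATG), the antioxidant response element ARE (TGACNNNGC) and the UPRE bound by XBP1 and ATF6 (TGACGTG). Matches can overlap, since an ARE match can hold an AP-1 or a UPRE match. Letters come from RefSeq's GRCm38.p6, which is mm10.
Adk UP region, chr14:21273765-21273964, plus strand: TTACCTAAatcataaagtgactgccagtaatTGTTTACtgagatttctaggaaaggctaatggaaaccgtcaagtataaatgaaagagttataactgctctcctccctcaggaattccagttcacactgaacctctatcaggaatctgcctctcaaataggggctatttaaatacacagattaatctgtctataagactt
Atxn1 UP region, chr13:45820700-45820899, plus strand: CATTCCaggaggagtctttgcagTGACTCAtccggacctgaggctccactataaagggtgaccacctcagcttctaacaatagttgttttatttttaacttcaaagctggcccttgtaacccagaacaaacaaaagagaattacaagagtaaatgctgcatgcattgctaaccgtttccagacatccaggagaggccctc
Dip2c UP region, chr13:9450246-9450445, plus strand: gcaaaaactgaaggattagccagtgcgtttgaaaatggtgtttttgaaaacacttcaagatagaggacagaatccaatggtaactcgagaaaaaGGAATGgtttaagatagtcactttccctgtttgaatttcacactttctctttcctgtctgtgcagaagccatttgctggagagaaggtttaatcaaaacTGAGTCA
Nav2 DOWN region, chr7:49476199-49476398, plus strand: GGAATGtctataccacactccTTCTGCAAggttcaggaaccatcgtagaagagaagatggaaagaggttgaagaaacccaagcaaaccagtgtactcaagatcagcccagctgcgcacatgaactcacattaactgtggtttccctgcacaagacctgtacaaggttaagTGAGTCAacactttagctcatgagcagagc
Mob3b DOWN region, chr4:35128991-35129190, plus strand: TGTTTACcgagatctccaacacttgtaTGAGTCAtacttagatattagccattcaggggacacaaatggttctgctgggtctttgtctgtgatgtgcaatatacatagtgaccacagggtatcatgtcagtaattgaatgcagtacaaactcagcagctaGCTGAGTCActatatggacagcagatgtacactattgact
Zbtb16 DOWN region, chr9:48736725-48736924, plus strand: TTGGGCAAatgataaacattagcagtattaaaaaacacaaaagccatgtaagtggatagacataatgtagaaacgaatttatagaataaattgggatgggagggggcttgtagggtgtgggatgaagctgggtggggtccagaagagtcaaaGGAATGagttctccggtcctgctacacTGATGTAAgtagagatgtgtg
All 6 stretches are intronic. They hold from 2 to 4 matches each, and the AP-1 letters occur in stretches of both classes.

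Shorter stretches of 60 bp show what 2 of the motifs, ATF4/CHOP and HNF4, look like in changed regions, and their shares per class are given further on. They are all the matches to ATF4/CHOP in the central windows of the 74 UP regions of the 12 genes with most UP regions (6 regions), and all the matches to HNF4 in those of 59 DOWN regions of the genes with most DOWN regions (2 regions, with Myo5b left out). These stretches were chosen after the values were seen.
B3galt1 UP region, chr2:67993650-67993709, plus strand: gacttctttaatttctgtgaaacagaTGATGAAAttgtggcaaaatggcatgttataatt
Dip2c UP region, chr13:9354115-9354174, plus strand: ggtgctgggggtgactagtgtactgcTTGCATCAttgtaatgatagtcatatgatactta
Pde4d UP region, chr13:109659218-109659277, plus strand: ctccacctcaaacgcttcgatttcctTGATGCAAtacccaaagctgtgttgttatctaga
Stard13 UP region, chr5:151117659-151117718, plus strand: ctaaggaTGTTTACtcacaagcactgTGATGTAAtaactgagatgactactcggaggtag
Tbl1x UP region, chrX:77545503-77545562, plus strand: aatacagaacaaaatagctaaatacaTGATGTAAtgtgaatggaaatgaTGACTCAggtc
Tbl1x UP region, chrX:77552203-77552262, plus strand: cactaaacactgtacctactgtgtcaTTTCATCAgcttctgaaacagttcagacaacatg
Sntg1 DOWN region, chr1:8843083-8843142, plus strand: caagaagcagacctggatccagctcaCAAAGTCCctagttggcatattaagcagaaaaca
Zbtb16 DOWN region, chr9:48819235-48819294, plus strand: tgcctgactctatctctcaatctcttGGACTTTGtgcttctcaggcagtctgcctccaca
The ATF4/CHOP letters stood in UP regions of B3galt1, Dip2c, Pde4d, Stard13 and, in 2 regions, Tbl1x. The 2 HNF4 matches stood in DOWN regions of Sntg1 and Zbtb16. A match is a description of letters and not a bound site.

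Of the 11733 intragenic regions, 1890 were UP, 1242 were DOWN and 8601 were unchanged. UP regions made 16.1% (95% Wilson interval from 15.5% to 16.8%), against 17.1% of all regions of the series. DOWN regions made 10.6% (10.04% to 11.2%), against 10.5% of all regions. The changed share, UP and DOWN together, was 26.7% (25.9% to 27.5%), against 27.6% of all regions. The shares inside genes were therefore close to those of the series as a whole, and 60.3% of the changed intragenic regions were UP (58.6% to 62.0%).

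Intragenic regions were then compared with other distal regions. Of the 7959 distal regions outside protein-coding genes, 29.9% were changed, 16.6% were UP and 13.2% were DOWN. The odds of being changed were lower inside than outside genes (odds ratio 0.856, 95% interval from 0.80 to 0.915, n = 19692 regions, adjusted p = 1.0e-05), and a changed region was more often UP inside genes (60.3% against 55.8%, odds ratio 1.21, 1.06 to 1.38, n = 5508 changed regions, adjusted p = 0.0076). These and the following odds ratios come from two-sided logistic regressions over regions, with errors clustered by 1 Mb block or by host gene and a BH correction over 13 tests. Their p-values measure the spread between regions and genes, not between experiments.

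Against the 12504 regions at or within 1 kb of a TSS, changed intragenic regions were less often UP (60.3% against 67.9%, odds ratio 0.719, 0.644 to 0.802, n = 6508 changed regions, adjusted p = 1.2e-08). The changed share itself was 26.7% inside genes and 27% near a TSS, which the test did not separate (odds ratio 0.985, 0.928 to 1.04, n = 24237 regions, adjusted p = 0.71). Regions near a TSS were wider, with a median of 1405 bp for unchanged regions against 1054 bp inside genes. With log2 width as a covariate, the odds of being changed were higher inside genes (odds ratio 1.27, 1.20 to 1.35, n = 24237 regions, adjusted p = 9.2e-14).

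Most intragenic regions were intronic. The midpoint lay in an intron for 94.2%, in a coding exon for 1.76% and in another exon for 4.02%. The median region was 1191 bp wide and lay 36.4 kb from the start of a host gene of 107 kb, while the median protein-coding gene of the annotation spans 17.4 kb. The midpoint lay in 1 protein-coding gene for 11387 regions and in several for 346, which were assigned to the gene with the nearest start. A midpoint in an exon was not separated from a midpoint in an intron in the changed share (27.3% against 26.7%, odds ratio 1.03, 0.868 to 1.23, n = 11733 regions, adjusted p = 0.72).

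Regions near the start of their gene were called less often than regions deep inside it. At 1 to 5 kb from the gene start, 17.8% of 589 regions were changed (14.9% to 21.1%). The share was 21.8% at 5 to 10 kb, 26.1% at 10 to 25 kb, and between 27.8% and 28.7% in the bins from 25 to 250 kb. Beyond 250 kb it was 31.8% of 865 regions (28.8% to 35.0%). The odds of being changed rose 1.29 times per 10-fold distance (1.19 to 1.40, n = 11733 regions, adjusted p = 3.4e-09). Regions of the first bin were also narrower, with a median of 871 bp against 1167 to 1236 bp in the other bins, and with width in the model the odds ratio was also 1.29 (1.18 to 1.40, n = 11733 regions, adjusted p = 3.1e-08). The first bins lay less low when distance ran to the nearest TSS of the gene. By that measure, 23.5% of 2155 regions at 1 to 5 kb and 24.5% at 5 to 10 kb were changed. The odds ratio was then 1.26 (1.15 to 1.39, n = 11733 regions, adjusted p = 4.4e-06).

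The classes are given apart without a test of each. UP regions made 11.4% at 1 to 5 kb and 17.0% beyond 250 kb, with the highest share, 18.1%, at 100 to 250 kb. DOWN regions made 6.45% at 1 to 5 kb and 14.8% beyond 250 kb. The UP share of changed regions was 63.8% in the first bin and 53.5% in the last, and its change with distance did not pass the test (odds ratio 0.865 per 10-fold distance, 0.738 to 1.01, n = 3132 changed regions, adjusted p = 0.10). With gene length in the model it did (odds ratio 0.741, 0.587 to 0.936, n = 3132 changed regions, adjusted p = 0.017). By distance to the nearest TSS of the gene it did not (odds ratio 0.890, 0.757 to 1.05, n = 3132 changed regions, adjusted p = 0.21).

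**Figure D1:**
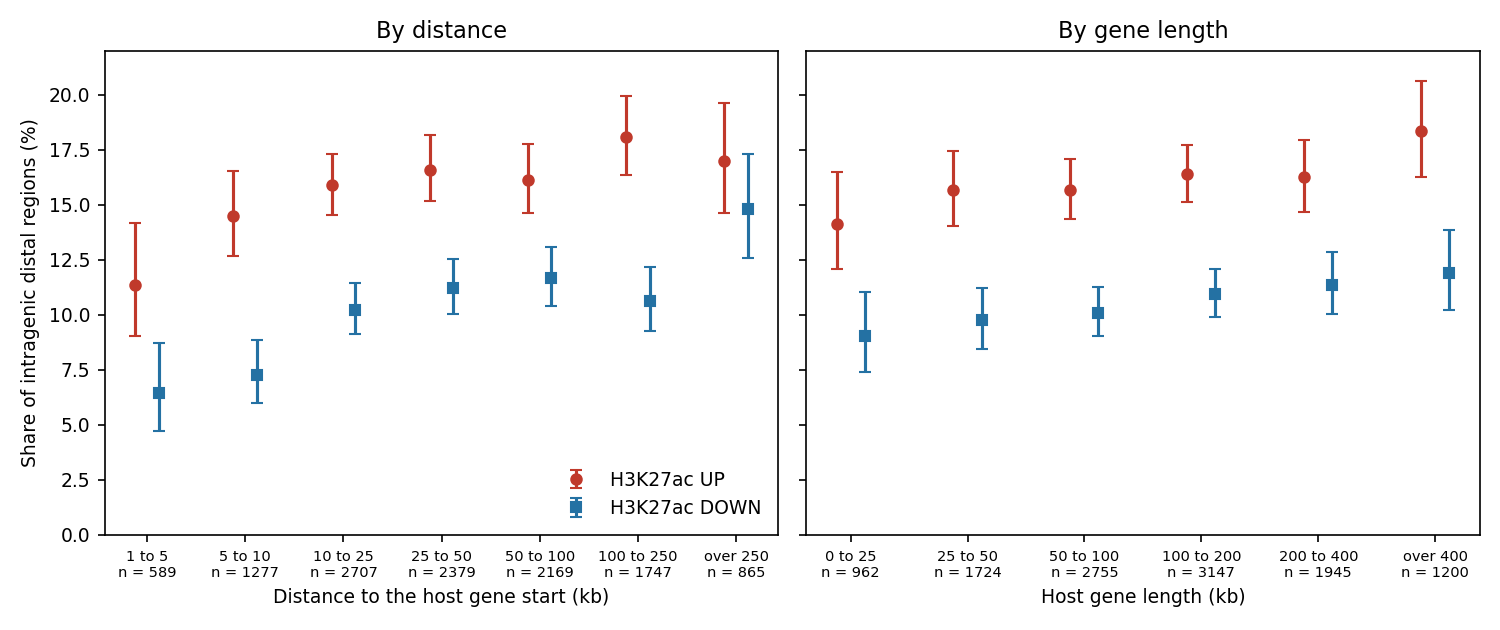
Share of intragenic distal regions (%, vertical axis) that were H3K27ac UP (red circles) or DOWN (blue squares), by distance of the midpoint to the start of the host gene (left, kb) and by length of the host gene (right, kb). Bars are 95% Wilson intervals and n is the number of regions in a bin. UP regions make 11.4% of the nearest and 17.0% of the farthest bin, DOWN regions 6.45% and 14.8%, and the shares by gene length span a narrower range.

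Distance was also taken as a share of the length of the gene. In the first 20% of the gene body, 23.1% of 2567 regions were changed and 8.06% were DOWN. In the last 20%, 29.4% of 1746 regions were changed and 12.8% were DOWN. The UP share was 15% in the first 20% and between 16.3% and 16.6% in the rest. Of the changed regions, 65.0% were UP in the first 20% and 56.3% in the last.

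Long genes held a larger changed share than short genes. It was 23.2% of 962 regions in genes of up to 25 kb (20.6% to 26.0%) and 30.2% of 1200 regions in genes over 400 kb (27.7% to 32.9%), with an odds ratio of 1.21 per 10-fold length (1.09 to 1.33, n = 11733 regions, adjusted p = 0.00034). Length bounds the distance a region can have, and with distance in the model the odds ratio for length was 0.886 (0.762 to 1.03, n = 11733 regions, adjusted p = 0.15). Within 25 kb of the start, 23.4% of regions were changed in genes of up to 100 kb and 25.2% in longer genes. Beyond 25 kb, the shares were 28.5% in both. The UP share of changed regions lay between 58.8% and 61.6% in all 6 bins of gene length (odds ratio 0.957 per 10-fold length, 0.786 to 1.16, n = 3132 changed regions, adjusted p = 0.71).

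By intron, 3976 regions (33.9%) lay in the first intron of the host transcript with the most upstream start. Of these, 15.6% were UP and 8.95% DOWN, against 16.6% UP and 11.2% DOWN in its other introns. Changed regions were UP in 63.5% of cases in first introns and in 59.5% in others, a difference that did not pass the test (odds ratio 1.18, 0.982 to 1.43, n = 2595 changed regions, adjusted p = 0.10).

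DOWN regions were wider than UP regions inside genes, as they were in the rest of the series. The median width was 1978.5 bp for DOWN, 1465.5 bp for UP and 1054 bp for unchanged regions, and the mean log2 width of DOWN regions exceeded that of UP regions by 0.40 (0.31 to 0.48, n = 3132 regions, adjusted p = 6.4e-18, least squares clustered by host gene). In regions of at least 1 kb the difference was 0.26 (0.19 to 0.33). Distal regions outside protein-coding genes had median widths of 1794 bp for DOWN and 1345 bp for UP. Near a TSS these medians were 3423 and 2034 bp. Of the 2354 narrowest regions (210 to 581 bp), 8.92% were UP and 3.53% DOWN. Of the 2347 widest (from 2330 bp), 22.1% were UP and 21.6% DOWN. The 3 widest intragenic UP regions lay in intron 1 of Egfr, the receptor for EGF (39094 bp), in intron 2 of Rora, a nuclear receptor of the clock (34265 bp), and in intron 1 of Ppfibp1, which encodes liprin beta 1 (20120 bp). The 3 widest DOWN regions lay in intron 3 of Zbtb16, which encodes the transcription factor PLZF (39056 bp), in intron 2 of Bcl2l1, which encodes the survival factor BCL-XL (26848 bp), and in intron 2 of Zmiz1 (25251 bp).

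The class of an intragenic region went with the class of the promoter of its gene, which the selection did not use. Host genes were grouped by the class of the regions that hold their TSSs. Any TSS in an UP or DOWN region set the class, even where other TSSs lay in unchanged regions or in none. Genes of the unchanged group had a TSS in an unchanged region and none in an UP or DOWN region. In genes with a TSS in an UP region, 21.5% of 2218 intragenic regions were UP and 8.39% DOWN. In genes with a TSS in a DOWN region, 8.45% of 1467 were UP and 16.5% DOWN. In genes whose TSSs lay in unchanged regions, 15.9% of 5995 were UP and 9.21% DOWN.

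Both differences passed the test. Against genes with unchanged promoters, the odds of an UP region were higher in genes with an UP promoter (odds ratio 1.45, 1.26 to 1.66, n = 8213 regions, adjusted p = 6.1e-07), and the odds of a DOWN region were higher in genes with a DOWN promoter (odds ratio 1.95, 1.62 to 2.34, n = 7462 regions, adjusted p = 1.1e-11). Both calls also held in regions over 10 kb from the gene start with width in the model, an alternative added after the data were seen, with odds ratios of 1.31 (1.11 to 1.53) and 1.57 (1.27 to 1.94). That distance is to the gene start alone, and another TSS that set the class of the gene can lie nearer. A further 1875 regions lay in genes with no TSS in an H3K27ac region, with 16.9% UP and 12.8% DOWN. The remaining 178 lay in genes with TSSs in both an UP and a DOWN region, with 9.55% UP and 12.4% DOWN.

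The shares are also given by distance, without a test within bins. Within 10 kb of the start of a gene with a DOWN promoter, 3 of 154 regions were UP (1.95%, 0.665% to 5.57%) and 24 were DOWN (15.6%). Beyond 50 kb in such genes, 10.3% of 715 regions were UP and 15.4% DOWN. In genes with an UP promoter, the UP share was 21.9% within 10 kb and 20.6% beyond 50 kb. In genes with an unchanged promoter it was 12.4% and 17.5%.

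**Figure D2:**
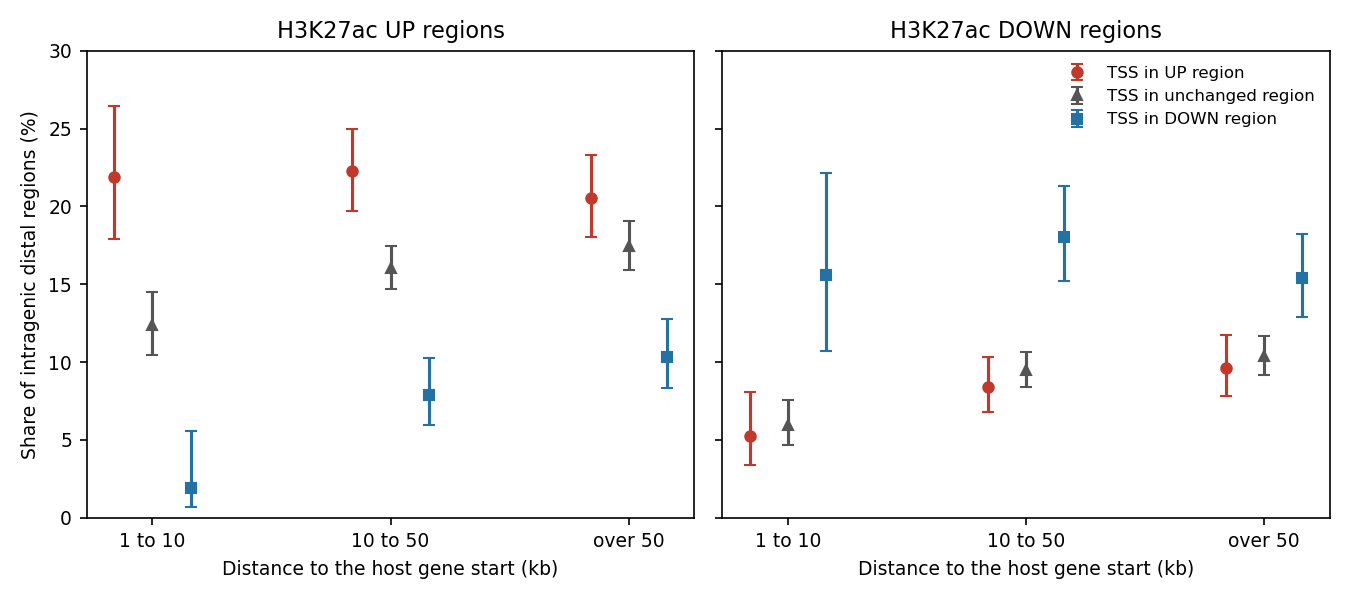
Share of intragenic distal regions (%, vertical axis) that were UP (left) or DOWN (right), by distance to the host gene start (kb). Symbols give the class of the region holding a TSS of the host gene (red circles UP, grey triangles unchanged, blue squares DOWN). Bars are 95% Wilson intervals. UP shares are lowest in genes with a DOWN promoter, from 1.95% within 10 kb to 10.3% beyond 50 kb, and DOWN shares are highest there, from 15.4% to 18.1%.

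Seen by gene, 2585 of the 4617 host genes held unchanged regions only. Of the other 2032, 1102 held UP regions and no DOWN region, 676 held DOWN and no UP region, and 254 held both. Among the 608 genes with at least 2 changed regions, 225 had UP regions only, 129 DOWN regions only and 254 (41.8%) both. Of the genes with UP regions only, 22.7% had an UP promoter and 4.26% a DOWN promoter. For genes with DOWN regions only, these shares were 13.02% and 15.8%. For genes with unchanged regions only, they were 13.9% and 7.27%. Regions of a gene share a locus and are not replicates.

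The genes with the most UP regions were Adk and Atxn1. Adk encodes adenosine kinase, which clears adenosine, and held 9 UP, 0 DOWN and 14 unchanged regions over 396 kb on chromosome 14. Its UP regions lay in introns 3, 4, 6 and 7, from 91.4 to 298 kb after the start, and the widest covered 18210 bp of intron 6. The regions closer to the start were unchanged, like its promoter. Atxn1, which encodes ataxin-1, held 9 UP and 0 DOWN among 19 regions over 415 kb on chromosome 13. Its UP regions, from 402 to 1818 bp wide, were spread from 22.8 to 280 kb after the start. A TSS of Atxn1 lay in an UP region.

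Dip2c held 8 UP regions among 11, all in its first intron on chromosome 13 from 19.5 to 214 kb after the start. A TSS of Dip2c was in an UP region. Met, which encodes the receptor for hepatocyte growth factor, held 5 UP regions among 7, in a gene of 110 kb on chromosome 6. These lay in introns 1, 3 and 16 and, for the region at 77.4 kb, over a non-coding exon base of one of its transcripts. They were 2706 to 8186 bp wide and a TSS of Met was in an UP region. Dip2c (72.7%) and Met (71.4%) had the highest UP shares of the 12 genes with most UP regions.

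Ptprj, a receptor tyrosine phosphatase, held 6 UP and 1 DOWN regions among 12 although a TSS of the gene lay in a DOWN region. Stard13 also had a DOWN promoter and held 6 UP, 0 DOWN and 10 unchanged regions. Zbtb20, a zinc finger repressor known for silencing alpha-fetoprotein in adult liver, held 6 UP, 3 DOWN and 25 unchanged regions over 767 kb, with all 6 UP regions between 422 and 555 kb. The other 5 genes held 5 UP regions each. They were Acvr1 (a receptor for BMP ligands, 5 of 12), Abtb2 (5 of 12, with 1 DOWN), B3galt1 (a galactosyltransferase, 5 of 12), Tbl1x (a subunit of the NCoR and SMRT corepressor complexes, 5 of 10) and Pde4d (a cAMP phosphodiesterase, 5 of 24 over 1504 kb).

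Of these 12 genes, 9 held 0 DOWN regions, 4 had a TSS in an UP region, 5 in an unchanged region, 2 in a DOWN region and 1 in no region. All 12 named genes were over 100 kb long, and a ranking by count favours long genes. Genes of up to 25 kb held 962 regions in 829 genes, and those over 400 kb held 1200 in 214. Of the 4617 host genes, 869 spanned 100 to 200 kb, 394 spanned 200 to 400 kb and 214 spanned over 400 kb. Among all 4617 host genes, 758 had an UP promoter and 385 a DOWN promoter. The count of 5 was shared by 7 further genes that the rule on ties left out: Ablim1, Dpyd, Magi1, Naaladl2, Ppp3ca, Rab30 and Slx4ip. Of these, Rab30 had 5 UP regions among 6 (83.3%).

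**Figure D3:**
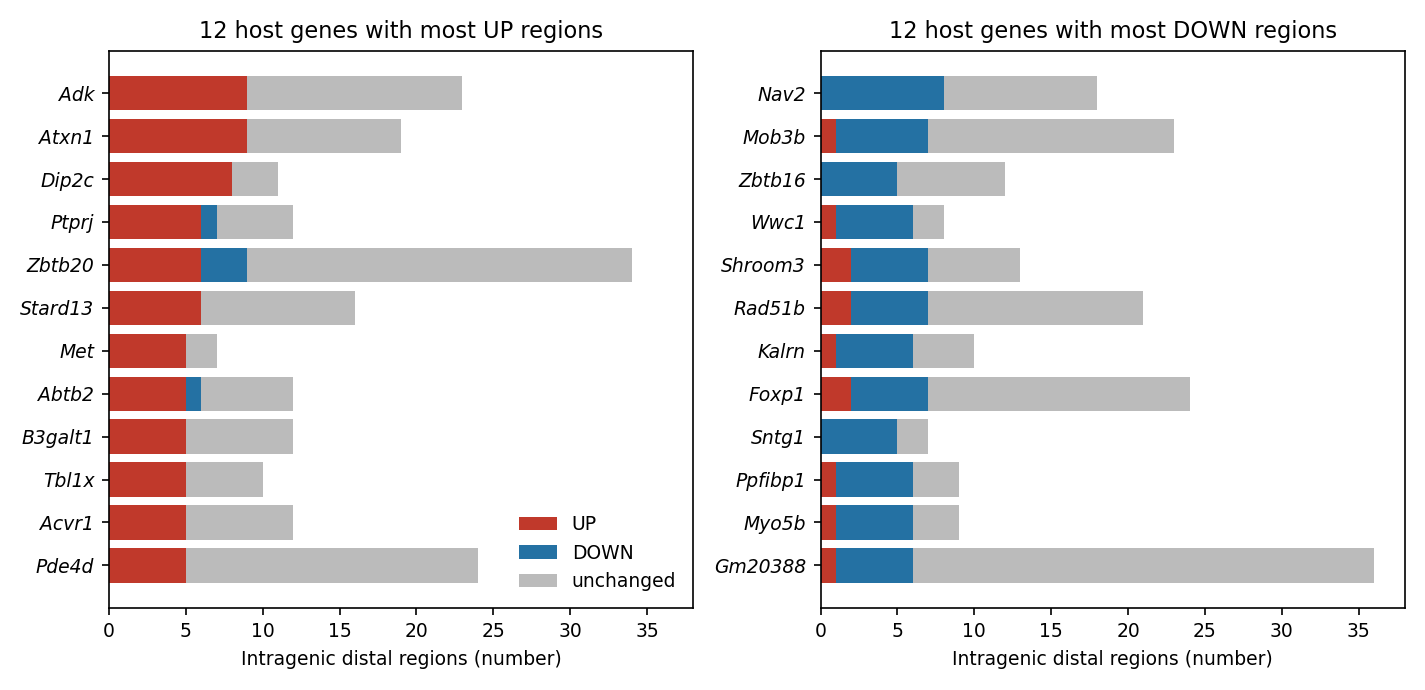
Number of intragenic distal regions (horizontal axis) that were UP (red), DOWN (blue) or unchanged (grey) in the 12 host genes with most UP regions (left) and the 12 with most DOWN regions (right). Adk and Atxn1 hold 9 UP regions each and Nav2 holds 8 DOWN regions, and 9 genes on the left have no DOWN region against 3 on the right without an UP region. Of all host genes with an UP region, 1102 of 1356 have no DOWN region. Of those with a DOWN region, 676 of 930 have no UP region.

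The gene with the most DOWN regions was Nav2, which encodes neuron navigator 2. It held 8 DOWN, 0 UP and 10 unchanged regions over 701 kb on chromosome 7, with a TSS in a DOWN region. The DOWN regions lay between 490 and 693 kb after the annotated start, and all 6 regions nearer to that start were unchanged. Mob3b, which encodes a MOB kinase activator, held 6 DOWN, 1 UP and 16 unchanged regions over 208 kb on chromosome 4. The widest of these DOWN regions covered 12244 bp of intron 1.

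Zbtb16 held 5 DOWN, 0 UP and 7 unchanged regions over 182 kb on chromosome 9. Its DOWN regions filled 71044 bp of introns 2 and 3, the most of any of the 12 genes. Wwc1, which encodes the Hippo pathway protein KIBRA, held 5 DOWN regions among 8, all in intron 1 between 18.02 and 62.4 kb after the start. It also held 1 narrow UP region of 760 bp in intron 19. Mob3b, Zbtb16 and Wwc1 each had a TSS in a DOWN region.

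**Figure D4:**
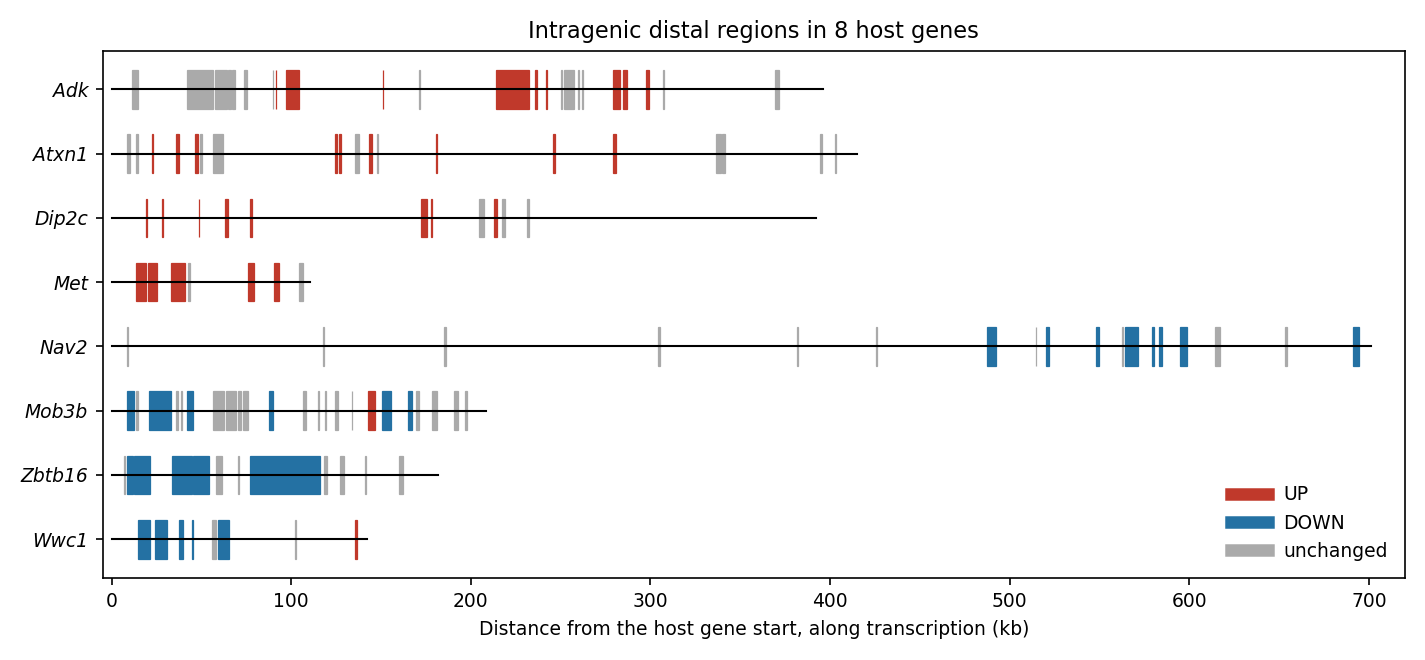
Intragenic distal regions in 8 host genes, drawn to scale by distance from the gene start along the direction of transcription (kb, horizontal axis), with black lines for the gene span and boxes for UP (red), DOWN (blue) and unchanged (grey) regions. UP regions of Adk have midpoints from 91.4 to 298 kb and those of Dip2c from 19.5 to 214 kb, while the 8 DOWN regions of Nav2 have midpoints from 490 kb on and those of Zbtb16 up to 96.6 kb.

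Of the other 8 genes with most DOWN regions, each held 5. Sntg1, which encodes syntrophin gamma 1, had 5 DOWN among 7 regions and no TSS in an H3K27ac region. Shroom3, an actin-binding protein of epithelial cells, had 5 DOWN and 2 UP among 13 regions and a DOWN promoter. Foxp1, a forkhead repressor, had 5 DOWN and 2 UP among 24. Rad51b, a homologous recombination factor, had 5 DOWN and 2 UP among 21. Kalrn had 5 DOWN and 1 UP among 10. Ppfibp1 had 5 DOWN regions of at most 3342 bp beside its wide UP region, and Myo5b, a myosin of apical vesicle traffic, had 5 DOWN and 1 UP among 9. The last, Gm20388, is a predicted gene with an annotated span of 4435 kb that holds 36 regions, and its span covers other genes. Of the 12 genes with most DOWN regions, 3 held 0 UP regions, as did 676 of the 930 host genes with a DOWN region. Of the 144 host genes with at least 10 regions, 23 held 0 UP regions. Among the 12, 6 (Gm20388 among them) had a DOWN promoter and 0 an UP promoter. Among all 4617 host genes, 385 had a DOWN and 758 an UP promoter. The 12 genes are the only ones with 5 or more DOWN regions. They were all over 100 kb long, and here too the ranking by count favours long genes.

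The genes with the most intragenic regions of any class, after Gm20388 (36) and Zbtb20 (34), were Lpp with 32 (2 UP and 4 DOWN), Pard3 with 31 (2 UP and 0 DOWN) and Nfia with 29 (1 UP and 2 DOWN). Lpp encodes a focal adhesion protein, Pard3 a polarity protein and Nfia a transcription factor of the nuclear factor I family. In Pard3 and Nfia, at most 3 of about 30 regions were changed, against 26.7% of all intragenic regions. Over 60% were changed in Dip2c, Met, Wwc1 and Sntg1, which held from 7 to 11 regions each. Those genes were named for their changed regions, so their high shares follow in part from the naming rule.

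Host genes were also grouped by function, as counts beside the 16.1% UP and 10.6% DOWN of all intragenic regions and without a test. Growth factor and cytokine receptors held 108 regions in 20 genes, of which 29 were UP (26.9%, 19.4% to 35.9%) and 5 were DOWN (4.63%, 1.99% to 10.4%). Besides Met and Acvr1, Fgfr2 held 4 UP and 0 DOWN among 14 regions, in an annotated span of 2961 kb. That span puts its UP regions from 222 to 2816 kb after the annotated start. All 14 lay in intron 2 of its transcript with the most upstream start. The 4 UP regions count among the 29, and whether they act on Fgfr2 was not tested. Egfr held 2 UP among 6. Outside the naming rule, the prolactin receptor gene Prlr held 4 UP among 6, whereas the growth hormone receptor gene Ghr held 2 UP and 1 DOWN among 18 and the insulin receptor gene Insr 0 UP and 1 DOWN among 11.

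ER stress genes held few intragenic regions, 33 in 10 of 30 genes, with 7 UP and 7 DOWN. Ern1, the gene of the sensor IRE1, held 3 UP, 2 DOWN and 3 unchanged regions over 93.2 kb. Its 3 UP regions were in introns 1, 2 and 3, at 8.61, 48.6 and 58.1 kb after the start, and its 2 DOWN regions were in introns 3 and 4, at 70.8 and 75.6 kb. The other genes with changed regions, all outside the naming rule, were Atf3 (2 UP), Edem1 and Trib3 (1 UP each), Atf6 and Creb3l2 (2 DOWN each) and Eif2ak3 (1 DOWN). Atf3 is a stress-induced factor, Edem1 takes part in the disposal of misfolded glycoproteins and Eif2ak3 encodes PERK.

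Hepatocyte transcription factors held 177 regions in 26 genes, with 22 UP (12.4%, 8.35% to 18.1%) and 18 DOWN (10.2%, 6.53% to 15.5%). Nr5a2, a nuclear receptor of bile acid and cholesterol genes, held 4 DOWN and 1 UP among 12 regions and had a DOWN promoter. Its 3 widest DOWN regions covered introns between 31.3 and 49.1 kb after the start. Nfib held 4 UP and 1 DOWN among 24, with the UP regions between 290 and 340 kb after the start. Hnf4a, a regulator of hepatocyte differentiation, held 3 regions and all were unchanged, although a TSS of the gene was in a DOWN region. Clock genes held 36 regions, 4 UP and 7 DOWN, and Rora alone had 2 UP and 4 DOWN among 16.

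In genes of xenobiotic and bile acid metabolism, 4 of 57 intragenic regions were UP (7.02%, 2.76% to 16.7%) and 9 were DOWN (15.8%, 8.54% to 27.4%). Genes with DOWN regions included Abcc3, Aldh1a1 and Fmo5, with 2 each. In lipid and glucose genes, 16 of 119 were UP (13.4%) and 7 DOWN (5.88%). Lipc, which encodes hepatic lipase, held 2 UP and 2 DOWN among 12, all 4 in intron 1. Elovl6, a fatty acid elongase, and Foxo3, a factor restrained by insulin, held 2 UP and 1 DOWN each among 11. Coagulation and complement genes held 30 regions, 4 UP and 4 DOWN. YAP, TEAD and actin genes held 116, with 12 UP and 6 DOWN, and Tead1 had 3 DOWN and 0 UP among 16.

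The study defines LIVER-ID genes by broad H3K4me3 found mostly in liver and UBQ genes by broad H3K4me3 shared with many tissues, both on other samples than these. LIVER-ID genes held 908 intragenic regions in 281 genes, with 12.4% UP (10.5% to 14.8%) and 9.47% DOWN (7.73% to 11.6%). UBQ genes held 948 in 209 genes, with 15.8% UP (13.6% to 18.3%) and 8.12% DOWN (6.55% to 10.035%). The 129 regions in LIVER-ID transcription factor genes had 11.6% UP (7.17% to 18.3%) and 14.0% DOWN (9.01% to 21.0%). These intervals overlap the shares of all intragenic regions except at the UP share of LIVER-ID genes and the DOWN share of UBQ genes, which lay below them.

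Motif letters were unevenly spread over the classes, given here as shares without a test. In the central 300 bp, AP-1 letters occurred in 31.1% of UP (29.1% to 33.2%), 21.1% of unchanged and 14.7% of DOWN regions (12.8% to 16.7%), against 17.9% of all regions of the series. AP-1 is the dimer of FOS and JUN proteins. The ATF4/CHOP letters, a composite of C/EBP and ATF sites, occurred in 13.1% of UP (11.7% to 14.7%), 5.66% of unchanged and 4.99% of DOWN regions (3.91% to 6.35%), against 5.47% of all regions. These letters occurred, for example, in the UP regions of Tbl1x and Stard13 printed above, and also in the longer stretch of the Zbtb16 DOWN region.

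TEAD letters, a site of the Hippo pathway, went the other way, with 17.9% of UP (16.3% to 19.7%), 19.9% of unchanged and 25.1% of DOWN regions (22.8% to 27.6%), against 17.7% of all. HNF4 letters were rarer and occurred in 1.96% of UP (1.42% to 2.69%), 2.55% of unchanged and 3.54% of DOWN regions (2.65% to 4.72%), against 2.39% of all, so that the intervals of UP and DOWN regions just overlapped. For C/EBP, the shares were 13.2% of UP and 16.3% of DOWN regions (13.2% of all), and for ARE 16.6% and 13.4% (14.6% of all). For FOXA (6.46% and 5.88%, 5.39% of all), the D-box (3.28% and 3.22%, 2.89% of all) and the UPRE (1.32% and 1.05%, 1.48% of all), as for C/EBP and ARE, the intervals of UP and DOWN regions overlapped. In unchanged intragenic regions, the shares were 14.8% for C/EBP, 15.3% for ARE, 6.80% for FOXA, 3.66% for the D-box and 1.34% for the UPRE. Those of FOXA, the D-box and the UPRE lay above both changed classes but within the intervals of both.

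**Figure D5:**
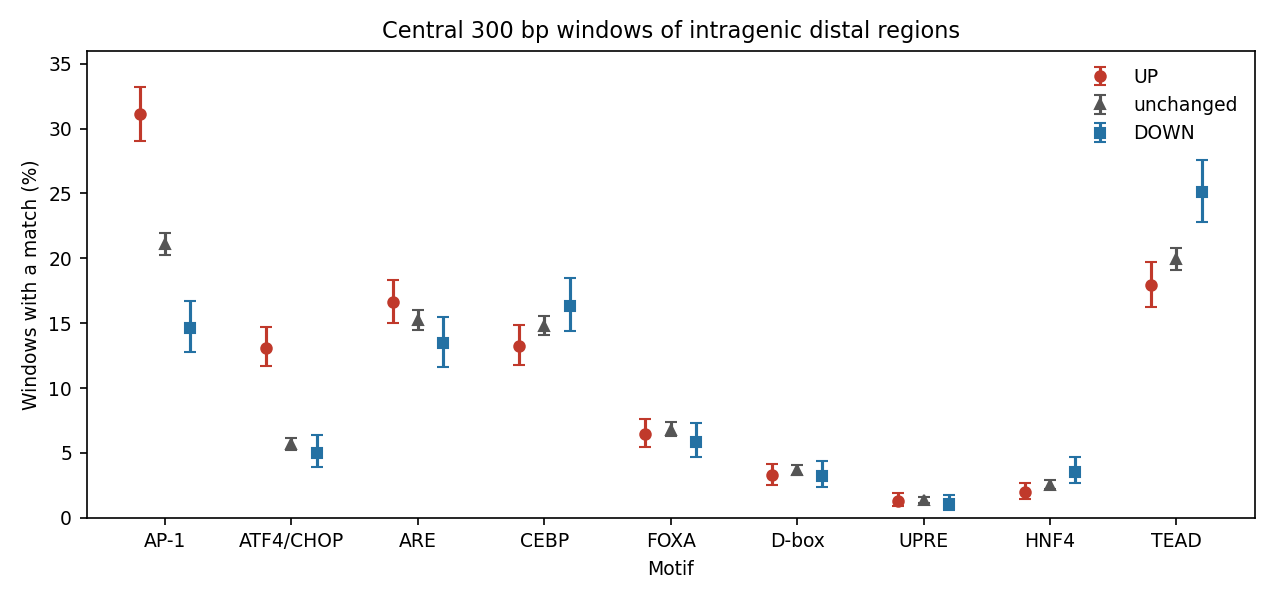
Share of intragenic distal regions (%, vertical axis) with a match to each motif in the central 300 bp, for UP (red circles), unchanged (grey triangles) and DOWN (blue squares) regions, with 95% Wilson intervals. AP-1 and ATF4/CHOP letters are most frequent in UP regions (31.1% and 13.1%) and TEAD letters in DOWN regions (25.1%).

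Base composition differed slightly between classes, with a median GC content of 44.3% in UP, 45.3% in unchanged and 46.0% in DOWN windows. The shares were therefore also taken at or below and above the median GC content of 45.3%. At or below it, ATF4/CHOP letters occurred in 14.9% of UP and 7.09% of DOWN regions, and above it in 10.7% and 3.24%. AP-1 (32.5% and 15.2%, then 29.3% and 14.2%), TEAD (17.3% and 24.1%, then 18.8% and 26.0%) and HNF4 (1.91% and 3.55%, then 2.02% and 3.54%) kept their direction on both sides of the median.

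The motif shares were also taken by the class of the host promoter. The ATF4/CHOP share of UP regions was 13.6% in genes with an UP promoter, 12.8% with an unchanged promoter and 12.9% with a DOWN promoter. In DOWN regions it was 4.84%, 5.25% and 5.37%. The AP-1 share of UP regions was 28.3%, 29.7% and 25% in the same order. Outside protein-coding genes, the AP-1 share of UP regions was 39.0% (36.4% to 41.7%), above the 31.1% inside genes, while the ATF4/CHOP share was 12.98% against 13.1%.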

How the data were processed

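H3K27ac ChIP-seq was performed in MPH treated with thapsigargin or DMSO. Per the labels and the methods of the study, reads were mapped to mm10 (the processing notes name Bowtie and MACS2), duplicates and blacklisted reads were removed, and broad peaks were called on the pooled libraries. Bins were filtered against input, normalized by loess and tested with csaw in a paired model. The deposited files hold start and end positions in base pairs and a class, without any score or count. In the published code the coefficient as coded compares DMSO with thapsigargin, and the direction used here is that of the class names.

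TSSs and gene spans came from GENCODE M21 (the study names an earlier release). Distance runs from the midpoint to the 5' end of the host gene. Classes were compared by logistic regression with cluster-robust errors (statsmodels 0.14.6, Python 3.11.15, numpy 2.4.6, pandas 2.3.3, scipy 1.17.1, matplotlib 3.10.9) at an adjusted p of 0.05. Some of the logistic fits, none of them of UP among changed regions, were tested on simulated data with a cluster effect set in advance. Motif windows were 300 bp wide. The members, lists and tests were chosen with earlier results of these data known. The genes named were the 12 with most UP and the 12 with most DOWN regions, the 5 with most regions, up to 3 per list with at least 3 changed regions, and the hosts of the widest regions. Ties were broken by the base pairs of the class. Some genes the rule names are not reported here. LIVER-ID and UBQ symbols were matched for 613 of 621 and 645 of 657 genes.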

Additional observations from a re-analysis of the deposited data

How the results depend on the processing

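No paired analysis was possible because the lists hold no value per library. For the same reason no library could be left out and no stricter threshold on the regions could be set. Of 108 alternative fits, 96 left the call as reported and 10 changed direction. Of these 10, 6 passed the threshold neither as reported nor in the alternative, 2 (inside genes against near a TSS) passed it in the alternative alone and 2 (changed regions by gene length) as reported alone. A further 2 kept their direction and passed it in the alternative alone. The odds ratio of being changed inside genes against near a TSS was 1.02 with a clearance of 5 kb around TSSs, 1.10 in regions of at least 1 kb and 1.27 with width as a covariate. The odds ratio of being changed for exons against introns was 0.970 for regions wholly inside the gene, 0.923 with each gene counted once and 0.786 for coding exons. Per 10-fold gene length, with distance as a covariate, the odds ratio was 1.27 for UP among changed regions and 0.886 for changed regions. With distance and width, an alternative added after the data were seen, these were 1.29 and 0.869. Per 10-fold distance, the odds ratio of UP among changed regions was 0.741 with gene length as a covariate and 0.728 with length and width. The cause was not tested. Leaving out predicted genes as hosts, also added later, changed no call. The depth is unknown, and an unchanged region is one without a call.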

Other observations

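Among hepatocyte markers, Cps1, the first enzyme of the urea cycle, held 3 UP and 0 DOWN among 6 intragenic regions. It had a TSS in an unchanged region and none in an UP or DOWN region.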
